A study of Mus musculus with 2 samples.

Results

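Of the 88016 DRACH sites that GLORI detected in the cerebrum, 37832, or 43.0% (42.7% to 43.3%), were not listed in the cerebellum although they lay in a protein-coding gene that carried at least 1 DRACH site in both tissues. DRACH is the motif of N6-methyladenosine (m6A) in mRNA, in which the methylated adenosine follows a purine (R), the D before that is any base but C, and the H at the end is any base but G. Membership was decided by the 2 site lists: a cerebrum site counted when its chromosome, position and strand were absent from the cerebellum list, its GRCm38 5-mer was DRACH, and it lay on the sense strand inside a GENCODE M21 coding gene holding a site common to both lists. These sites are called cerebrum-only sites below, and they made up 20.1% of all 188295 sites of the cerebrum list. The same 6914 genes held 38550 DRACH sites common to both libraries and 7623 that were listed only for the cerebellum. A further 10281 cerebrum-only DRACH sites lay outside such genes and are used only where stated.

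Each tissue was represented by 1 GLORI library of poly(A)+ RNA from a female F1r mouse at P0, the day of birth, where F1r denotes a C57 mother and a PWK father. Both libraries therefore share sex, age and hybrid genotype and differ by tissue. GLORI deaminates unmethylated adenosines, which are then read as G, while m6A is still read as A. The cerebrum list held 188295 sites and the cerebellum list 79355, of which 88016 and 49274 were DRACH. The sequencing depth behind them is unknown because the lists carry positions without methylation rates or read counts. With 1 library per tissue, no test between the tissues was possible. Percentages are given with 95% Wilson intervals, which cover counting error over sites only and treat neighbouring sites as independent. A site can be missing from the cerebellum list because it was methylated below the rate filter, because too few reads covered it, or because fewer cells or less RNA of that gene were present, and these cannot be told apart here.

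m6A is written on nascent transcripts by a complex around METTL3 and METTL14, which prefers the DRACH sequence. It is known to collect in long internal exons, near stop codons and in 3′ UTRs, while exon junction complexes keep it away from splice junctions. In the developing brain, readers of the YTH family bind m6A, and the mark is known to affect mRNA turnover, progenitor timing and axon growth.

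The labels were first compared with regional marker genes. Each of the 17 forebrain genes examined carried DRACH sites in the cerebrum library, and 8 of them had no common site, among them Dlx1 with 27 cerebrum-only sites, Tbr1 with 17 and Fezf2 with 13. Of the 20 cerebellum genes examined, 9 had a common site and 6 had DRACH sites in a single library. Among these 6, Barhl1, En2, En1, Barhl2 and Lhx5 carried 11, 8, 5, 3 and 1 DRACH sites in the cerebellum library and 0 in the cerebrum library, whereas Pax6 carried 2 in the cerebrum library and 0 in the cerebellum library. Genes without a common site contribute no member.

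The pairs below show a cerebrum-only and a common site of 1 gene, and only pairs with both sites on 1 exon are shown. Their genes were selected on the most cerebrum-only sites or on the largest or smallest cerebrum-only share. Within a gene the pair was chosen by nearness of the sites, so short gaps follow from the choice. Pairs chosen likewise but not printed lay from 4 nt (Ptprd) to 102525 nt (Cacna1c) apart. Over all cerebrum-only sites, 19.7% had a common DRACH site within 50 nt, and the median distance was 214.5 nt. Each line gives 21 bases of GRCm38 on the transcript strand, with T for U and the DRACH 5-mer in capitals.

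Neurod2 cerebrum-only, chr11:98327173-98327193, minus strand, 3′ UTR: cataactgAGACCtcgcgccg
Neurod2 common, chr11:98327179-98327199, minus strand, coding, beside the stop codon: tttttccaTAACTgagacctc
Frmd4a cerebrum-only, chr2:4612670-4612690, plus strand, 3′ UTR: acattaccAGACTgggaaggt
Frmd4a common, chr2:4612660-4612680, plus strand, 3′ UTR: ataacaatAGACAttaccaga
Bhlhe22 cerebrum-only, chr3:18056428-18056448, plus strand, 3′ UTR: gctatgaaAGACTtgtatttt
Bhlhe22 common, chr3:18056452-18056472, plus strand, 3′ UTR: ttgtctctGAACTtaaaattc
Kcnq5 cerebrum-only, chr1:21399769-21399789, minus strand, 3′ UTR: ttgcaaacAGACTgctactca
Kcnq5 common, chr1:21399694-21399714, minus strand, 3′ UTR: cctccaacGGACAttacacac
Vcan cerebrum-only, chr13:89703827-89703847, minus strand, exon 7 of 15, coding: atatccttGAACAgactcatc
Vcan common, chr13:89703823-89703843, minus strand, exon 7 of 15, coding: ccttgaacAGACTcatctaga
Macf1 cerebrum-only, chr4:123434824-123434844, minus strand, exon 56 of 98, coding: ggacaattAGACAatgagatt
Macf1 common, chr4:123434832-123434852, minus strand, exon 56 of 98, coding: ctgatttgGGACAattagaca
Klf6 cerebrum-only, chr13:5864892-5864912, plus strand, exon 2 of 4, coding: aggaatcaGAACTgaagattt
Klf6 common, chr13:5864921-5864941, plus strand, exon 2 of 4, coding: cccccagaGGACTctctgatc
Zyg11b cerebrum-only, chr4:108265817-108265837, minus strand, exon 3 of 14, coding: tgggcaaaGGACActtgaagg
Zyg11b common, chr4:108265971-108265991, minus strand, exon 3 of 14, coding: gagcaaaaGGACAtcttgccc

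The sites of Vcan lay 4 nt apart, those of Neurod2 6 nt, those of Macf1 8 nt and those of Frmd4a 10 nt, so the windows of these pairs overlap. In Zyg11b both sites had the 5-mer GGACA on the same 755-nt exon, and the common site lay 164 nt from the nearest exon junction while the cerebrum-only site lay 10 nt from it. In Vcan the common site had AGACT and the cerebrum-only site GAACA, so the common 5-mer alone ended in T, as in Neurod2. In Frmd4a and Kcnq5 the cerebrum-only 5-mer alone ended in T. In the other printed pairs both 5-mers ended in the same base. Motif and distance to junctions are compared over all sites below.

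Across the 6914 genes with a common site, 6235 held at least 1 cerebrum-only site and 679 held none. Among genes with such a site the median was 4 (quartiles 2 and 8), with exactly 1 in 903 genes, 10 or more in 1194 and 20 or more in 264. The sites were spread widely: of the 36673 that lay in exactly 1 coding gene, the 100 genes with the most held 9.73%. Cerebrum-only sites outnumbered common sites in 3027 genes, which is 43.8% of the genes with a common site, equalled them in 925 and were fewer in 2962. Over genes, the number of cerebrum-only sites had a Spearman correlation of 0.57 with the number of common sites and of 0.50 with exon length. Genes are not independent replicates and share the same libraries.

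The balance varied with how many common sites a gene had. In the 1907 genes with exactly 1 common site, cerebrum-only sites were 72.5% (71.4% to 73.5%) of cerebrum-only plus common sites, and in the 389 genes with 20 or more they were 37.2% (36.5% to 37.9%). These shares partly follow from the rule, which sets the number of common sites. At the threshold of the rule itself, genes with exactly 1 common site held a median of 2 cerebrum-only sites (quartiles 1 and 4). Of these 1907 genes, 1501 had a cerebrum-only site. The 3007 genes with cerebrum-only DRACH sites but no common site held a median of 2 (quartiles 1 and 3). Each of the 3007 has at least 1 by definition, so the medians cover unlike sets of genes.

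**Figure D1:**
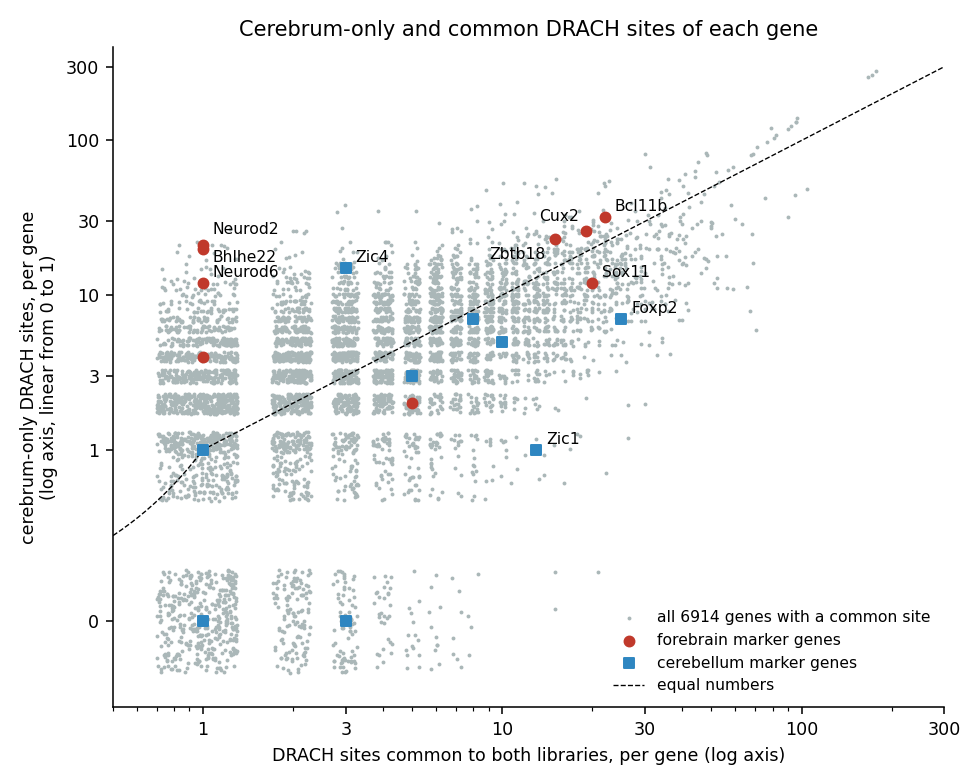
Each point is 1 of the 6914 genes with a common DRACH site, plotted by its common sites (x, log axis) and its cerebrum-only sites (y, log axis, linear below 1), with grey points jittered, and forebrain and cerebellum marker genes in colour. Neurod2, Bhlhe22 and Neurod6 have 1 common site each and 21, 20 and 12 cerebrum-only sites, far above the line of equal numbers, while Zic1 lies below it with 1 against 13.

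The genes with the highest counts were first of all overlapping gene intervals. Of the 10 genes with the most cerebrum-only sites, 9 overlapped on chromosome 18. They were protocadherin gamma genes and longer gene models that begin upstream of these and overlap them, headed by Gm42416 with 282. The counts of the longer models therefore include sites outside the gamma genes. None of these 9 had a cerebrum-only site in its interval alone. The other was Gm20388 with 121, of which 16 lay in it alone. A ranking by sites in exactly 1 coding gene, chosen after these values were seen, was headed by Ptprd, a receptor phosphatase of synapse formation, with 81 cerebrum-only, 30 common and 5 cerebellum-only sites. Also among these genes, Frmd4a had 67 cerebrum-only and 31 common sites, and Tenm2, a teneurin adhesion protein, 63 and 52. Dlg2, a postsynaptic scaffold, had 56 and 15, the cytoskeletal linker Macf1 56 and 36, the matrix proteoglycan Vcan 56 and 39, the ErbB ligand Nrg3 55 and 23, the adhesion protein Lsamp 53 and 10, and the splicing regulator Rbfox1 53 and 12.

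These genes differed in where the sites lay. In Ptprd 69 of the 81 cerebrum-only sites were intronic, in Dlg2 53 of 56, in Rbfox1 49 of 53, in Lsamp 48 of 53 and in Nrg3 45 of 55. In Macf1 and Vcan only 4 and 3 were intronic, and Vcan held 43 of its 56 in coding sequence.

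Among the 1277 genes with at least 20 DRACH sites over both libraries, the median share of cerebrum-only in cerebrum-only plus common sites was 45.8% (quartiles 33.3% and 58.6%). The largest shares belonged to genes with a single common site: Kcnq5, a potassium channel, with 27 cerebrum-only sites, Ptprk with 22, Cacna1c, a calcium channel, with 21, Frmd4b with 21, the neuronal transcription factor Neurod2 with 21, the neuropeptide Y receptor Npy1r with 21, the transcription factor Bhlhe22 with 20, and the guidance ligand Sema3a with 19. In Neurod2, Bhlhe22, Npy1r, Frmd4b, Ptprk and Sema3a the cerebellum list held the common site and no other DRACH site, whereas it held 3 further sites in Kcnq5 and 7 in Cacna1c. Introns held 17 of the 22 sites of Ptprk, 14 of the 21 of Cacna1c and 13 of the 27 of Kcnq5, but 0 in Bhlhe22, Npy1r and Frmd4b and 1 each in Neurod2 and Sema3a.

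At the other end, the secreted protein Olfm1 had 21 common sites, 3 cerebellum-only sites and 0 cerebrum-only sites. A single cerebrum-only site was found beside 26 common sites in Atxn7l3b, 22 in Magee1, 18 in the transcription factor Klf6, 18 in Zyg11b and 13 in Sash1. The other genes of this end, Ntng1 and Klhl9, had 2 cerebrum-only sites beside 30 and 26 common sites.

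Gene groups with known roles were compared by the same share, which over all genes was 49.5% (49.2% to 49.9%). It was 46.3% (45.9% to 46.7%) when only sites on coding isoforms were counted. Of all genes with a common site, 43.8% had more cerebrum-only than common sites, the value to set beside the gene counts below. As given above, the share was lower in genes with many common sites, and the groups were not matched for that number. Forebrain transcription factors stood highest. The 9 forebrain markers with a common site held 152 cerebrum-only, 85 common and 3 cerebellum-only sites, a share of 64.1% (57.8% to 69.97%), and 7 of the 9 had more cerebrum-only than common sites. Bcl11b, which specifies corticospinal neurons, had 54 DRACH sites in the cerebrum and 22 in the cerebellum, all 22 common. Cux2, an upper-layer factor, had 45 and 20, Zbtb18 had 38 and 15, and Neurod6 had 13 and 1. Sox11 and Lhx2 were the exceptions, with 12 cerebrum-only against 20 common sites and 2 against 5.

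The 9 cerebellum markers with a common site held 39 cerebrum-only, 69 common and 38 cerebellum-only sites, a share of 36.1% (27.7% to 45.5%). Zic4 was the only one with more cerebrum-only than common sites, 15 against 3, while Zic1 had 1 against 13 and Foxp2, a factor of Purkinje cells, 7 against 25. Rora, which Purkinje cells require, had 7 cerebrum-only, 8 common and 19 cerebellum-only sites, and Lhx1 had 0, 1 and 10.

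Among the neuronal lists, axon guidance genes had a share of 55.9% (52.3% to 59.4%). Cerebrum-only sites outnumbered common sites in 18 of 31 genes (58.1%, against 43.8% of all genes). The plexin receptor Plxna2 had 46 against 21 sites, Efnb2 18 against 7, Robo2 24 against 9, Sema3a 19 against 1 and Plxnb1 13 against 1. Sema3e, with 1 common site, was the only gene of the 31 without a cerebrum-only site, and Sema6a had 5 against 24. On coding isoforms the share was 48.6% (44.7% to 52.5%).

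Glutamate and GABA receptors had a share of 47.6% (43.9% to 51.3%). Of their genes, 18 of 34 (52.9%, against 43.8% of all genes) had more cerebrum-only than common sites. On coding isoforms their share was 37.3% (33.4% to 41.5%), below that of all genes, and 127 of their 333 cerebrum-only sites were intronic. Gria1, an AMPA receptor subunit, was the most unequal by number, with 57 DRACH sites in the cerebrum and 12 in the cerebellum. All 9 common and all 3 cerebellum-only sites of Gria1 were intronic, while 24 of its 48 cerebrum-only sites lay in the 3′ UTR, 3 in coding sequence, 1 in the 5′ UTR and 20 in introns. Its paralogue Gria2 had 9 cerebrum-only against 28 common sites, of which 19 common sites lay in the 3′ UTR. Grik3 had 25 against 13, whereas the NMDA receptor subunits Grin2b and Grin3a had 19 against 44 and 9 against 31.

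Voltage-gated channels had a share of 52.03% (48.3% to 55.7%), and 44.7% (40.6% to 48.9%) on coding isoforms. Above equality were 11 of 27 genes (40.7%, against 43.8% of all genes). The potassium channel Kcnh7 had 30 cerebrum-only against 8 common sites. Hcn3 had 0 against 3, and the sodium channels Scn2a and Scn3a had 8 against 23 and 9 against 25. Postsynaptic scaffolds had a share of 56.8% (51.4% to 62.0%) with 7 of 14 genes (50%) above equality, led by Dlg2 and by Shank2 with 26 against 18. On coding isoforms, however, the share was 44.1% (37.8% to 50.6%). Genes of synaptic vesicle release had a share of 40.98% (36.2% to 45.9%) with 7 of 19 (36.8%) above equality, and 34.9% (30.04% to 40.1%) on coding isoforms. Pclo, a presynaptic scaffold with a very long coding exon, had 32 against 90, Unc13b 29 against 10, and Stx1a 0 against 2.

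Among the lists with at least 30 sites, synaptic adhesion genes had the largest drop from all sites to sites on coding isoforms. Their share was 45.2% (42.5% to 47.9%) over all sites and 29.6% (26.7% to 32.7%) on coding isoforms, since 305 of their 594 cerebrum-only sites, or 51.3%, were intronic. Ptprd carried 69 of those intronic sites, Tenm2 45 and Nrxn3 33. The intronless or nearly intronless Slitrk genes had fewer cerebrum-only than common sites, as in Slitrk3 with 9 against 35 and Slitrk5 with 18 against 41, except Slitrk2 with 15 against 12. Genes of the neuronal microtubule and ankyrin-spectrin cytoskeleton likewise had 43.1% (39.5% to 46.7%) over all sites and 30.7% (26.8% to 34.8%) on coding isoforms. Above equality were 8 of 19 genes (42.1%, against 43.8% of all genes). Dst had 45 against 13 and Macf1 56 against 36, whereas the microtubule proteins Map1a and Map1b had 12 against 51 and 13 against 52.

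Chromatin regulators had a share of 39.8% (36.9% to 42.8%), and 37.9% (35.004% to 40.9%) on coding isoforms. Above equality were 7 of 33 genes (21.2%, against 43.8% of all genes). These 33 genes held 645 common sites. Over all genes the share was also low where common sites were many, 43.8% with 10 to 19 and 37.2% with 20 or more. Among histone methyltransferases, Nsd1 had 25 against 68 and Kmt2a 30 against 50, while Setd1b had 21 against 11. The acetyltransferase Crebbp had 8 against 36, and the remodeller Chd3 had 0 against 1. Genes of the m6A machinery had 45.4% (39.6% to 51.2%), with 5 of 13 (38.5%) above equality, and 44.1% (38.1% to 50.2%) on coding isoforms. The writer subunit Virma had 22 against 10 and the adaptors Rbm15b and Rbm15 21 against 16 and 17 against 11, while the readers Ythdf2 and Ythdf3 had 8 against 18 and 8 against 22. Mettl3 itself had 2 against 1. Cytosolic ribosomal proteins, abundant transcripts with short coding sequences, carried only 3 cerebrum-only and 7 common sites in the 5 genes with a common site.

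Marker genes of other cells were few. Radial glia and astrocyte markers had 39.6% (27.6% to 53.1%) in 6 genes, with Slc1a2 at 11 against 14 and Aqp4 at 1 against 6 beside 10 cerebellum-only sites. That share leaves out Nes, Gfap and Fabp7, which had no common site. They carried 5, 3 and 2 DRACH sites, all listed only for the cerebrum. Oligodendrocyte lineage markers had 44.1% (28.9% to 60.5%) in 5 genes. Vessel and meningeal markers held 10 cerebrum-only and 13 common sites in 4 genes, and microglial markers 3 and 2 in 2 genes. Otx2, from the choroid plexus list, had 1 and 1 beside 10 cerebellum-only sites. Csf1r of the microglial list and Clic6 of the choroid plexus list had no common site. They carried 2 and 1 DRACH sites, listed only for the cerebrum. No blood marker had a common site, and Hbb-bs had 1 cerebrum-only DRACH site. The part that cell composition has in the counts of the gene groups was not tested.

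**Figure D2:**
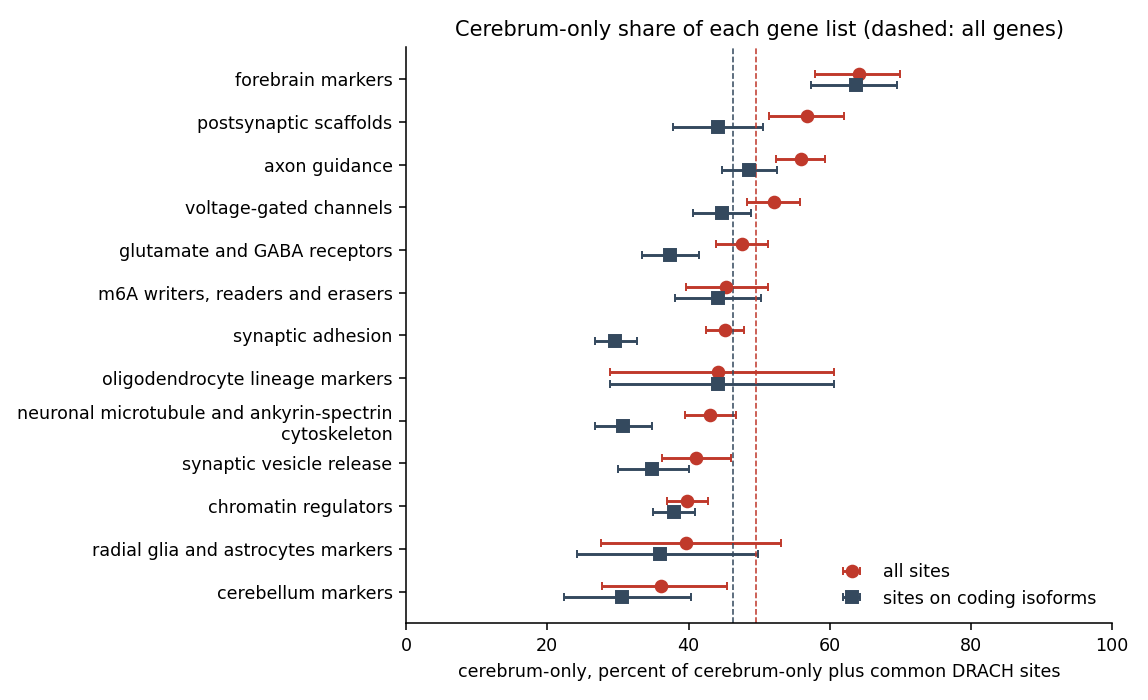
For each gene list with at least 30 sites, the x axis gives cerebrum-only sites as a percentage of cerebrum-only plus common DRACH sites, over all sites (circles) and on coding isoforms (squares), with 95% Wilson intervals and dashed lines for all genes. Forebrain markers stand above both lines, at 64.1% over all sites, and synaptic adhesion genes drop from 45.2% over all sites to 29.6% on coding isoforms.

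The position of the sites was examined next. Of the cerebrum-only sites, 83.7% lay on a coding isoform and 12.1% (11.7% to 12.4%) in introns, whereas 2.01% (1.87% to 2.15%) of common sites were intronic. Cerebellum-only sites of the same genes were intronic at 14.7% (14.0% to 15.6%), so sites of either single library were intronic more often than common sites. In 1751 genes with at least 5 sites of each kind, the intronic share was higher among cerebrum-only sites in 697 genes, lower in 51 and equal in 1003. Across the 19 autosomes it ranged from 5.86% on chromosome 19 to 19.3% on chromosome 14 among cerebrum-only sites, and from 0.915% to 3.80% among common sites.

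The 4561 intronic sites were spread over 1384 genes, 110 of which held 10 or more. Intronic sites of both classes belonged to very long genes. The median gene length was 361 kb for intronic cerebrum-only and 281 kb for intronic common sites, against 49.9 kb for coding-isoform cerebrum-only sites, and 39.1%, 37.1% and 4.35% of them lay in genes above 500 kb. Besides the genes above, Ctnna2, a neuronal catenin, had 48 of its 50 cerebrum-only sites in introns and Nkain2 39 of 46. DRACH was rare among the intronic sites of the cerebrum list. In these genes 11.2% (10.9% to 11.5%) of all cerebrum-only intronic sites had a DRACH 5-mer, against 6.46% (6.41% to 6.51%) of the uncalled adenosines within 50 nt. In 3′ UTRs the corresponding values were 54.3% (53.7% to 54.8%) and 5.84%, in coding sequence 50.4% (49.8% to 51.04%) and 6.02%. Of the common intronic sites, 52.8% (50.2% to 55.3%) were DRACH.

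On coding isoforms, cerebrum-only sites were distributed much like common sites, with 53.9% (53.4% to 54.5%) and 56.3% (55.7% to 56.8%) in 3′ UTRs, 43.0% and 41.1% in coding sequence and 3.11% and 2.69% in 5′ UTRs. Within 3′ UTRs they lay farther downstream, at a median of 626 nt from the start of the UTR against 461 nt, although the UTRs had similar median lengths of 2574 and 2586 nt. Cerebellum-only sites lay farther still, at 778.5 nt, and the uncalled DRACH adenosines of the same isoforms at 1511 nt.

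Around the stop codon the peak of cerebrum-only sites was flatter. Of the cerebrum-only sites 19.3% (18.9% to 19.8%) lay within 200 nt of it, compared with 22.4% (22.0% to 22.9%) of common sites, 17.2% (16.2% to 18.1%) of cerebellum-only sites and 8.02% (7.95% to 8.09%) of uncalled DRACH adenosines. From 100 to 150 nt downstream, 12.4 of 100 DRACH adenosines were cerebrum-only sites and 20.7 were common sites, while from 1000 to 950 nt upstream the values were 4.12 and 4.21. Within genes with at least 5 sites of each kind, the share near the stop codon was lower among cerebrum-only sites in 762 genes and higher in 582 of 1520. Cerebrum-only DRACH sites outside genes with a common site had a larger share there, 31.6%, than either class inside them taken as a whole. The share inside varied with the number of common sites per gene. With exactly 1 common site it was 28.2% of cerebrum-only and 42.1% of common sites, and with 20 or more it was 9.68% and 11.6%.

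**Figure D3:**
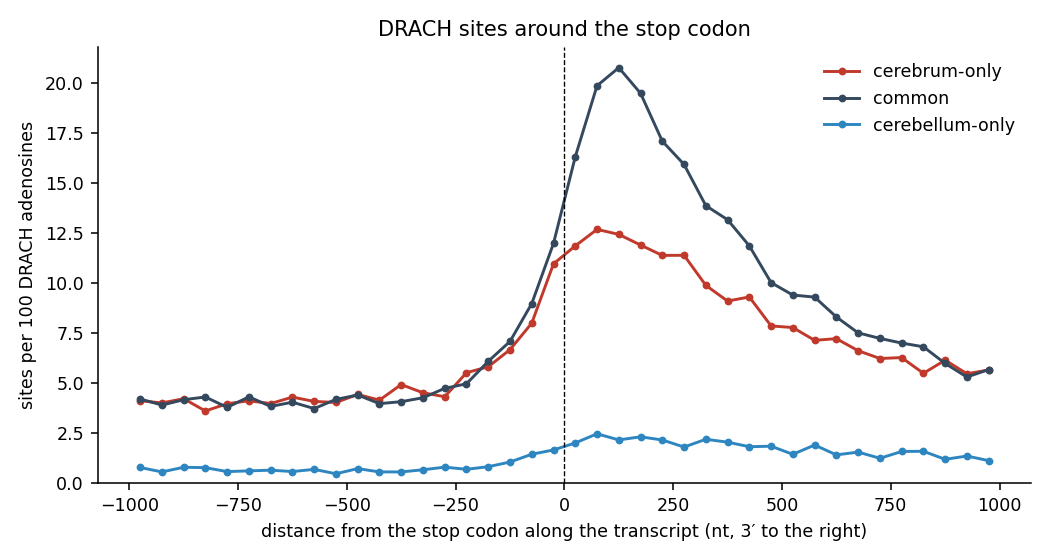
Sites per 100 DRACH adenosines of the isoforms (y) in bins of 50 nt by distance from the stop codon (x, nt) for cerebrum-only, common and cerebellum-only sites. The common curve reaches 20.7 between 100 and 150 nt downstream, where the cerebrum-only curve is at 12.4, and the 2 curves run together upstream of the stop codon.

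Exon junctions separated the classes more clearly. Within 100 nt of a junction lay 10.1% (9.80% to 10.5%) of cerebrum-only sites, 6.20% (5.95% to 6.45%) of common sites and 10.7% (9.96% to 11.5%) of cerebellum-only sites, against 38.3% of uncalled DRACH adenosines. Within 50 nt the values were 4.50% (4.28% to 4.74%), 1.58% (1.46% to 1.72%), 4.64% and 27.2%. Both kinds of single-library site were thus depleted near junctions relative to the sequence, but less so than common sites.

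In internal exons the cerebrum-only share of cerebrum-only plus common sites was 81.3% (78.0% to 84.3%) at 1 to 25 nt from a junction, with 484 against 111 sites, 71.7% at 26 to 50 nt, 60.5% at 51 to 75 nt, 51.05% at 76 to 100 nt and 44.3% (41.99% to 46.5%) beyond 100 and up to 150 nt. From there to 1000 nt it lay between 41.3% and 44.2%, and beyond 1000 nt it was lower again, 38.3% (35.9% to 40.8%). In last exons the share was 62.4% (55.3% to 69.0%) in the closest bin, 41.5% at 76 to 100 nt and 49.0% beyond 1000 nt. The closest bin of internal exons held 0.656 cerebrum-only and 0.150 common sites per 100 DRACH adenosines, and the bin beyond 200 and up to 300 nt held 14.1 and 17.8. Internal exons of at most 200 nt carried 10.7% (10.02% to 11.4%) of the internal-exon cerebrum-only sites, 1.72% (1.46% to 2.03%) of the common and 13.3% (11.6% to 15.3%) of the cerebellum-only ones. The median length of the internal exon was 875 nt for cerebrum-only, 1105 nt for common and 857.5 nt for cerebellum-only sites, and 159 nt for uncalled DRACH adenosines. In 1482 genes with at least 5 sites of each kind, the share within 100 nt of a junction was higher among cerebrum-only sites in 652 and lower in 354.

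**Figure D4:**
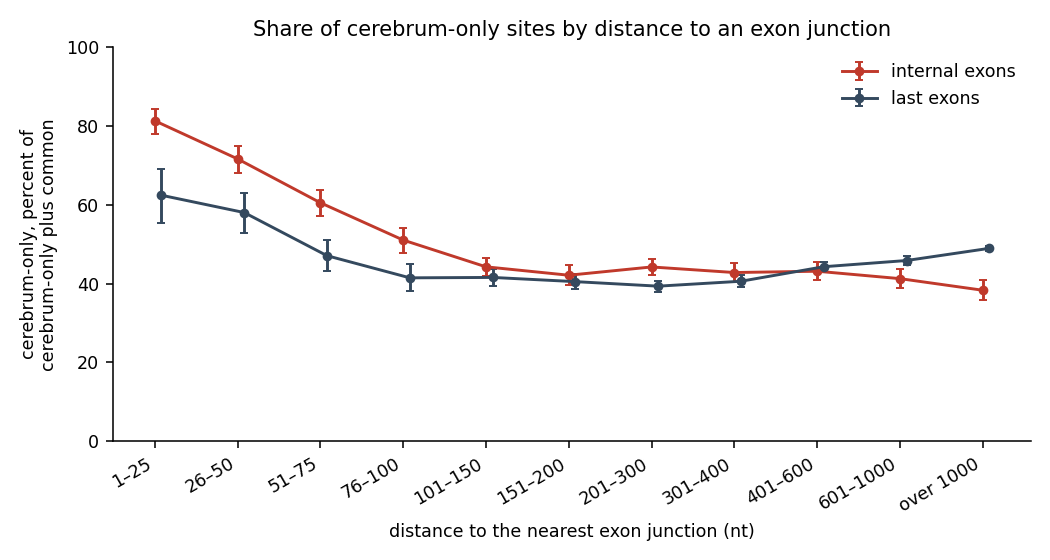
Cerebrum-only sites as a percentage of cerebrum-only plus common DRACH sites (y) by distance to the nearest exon junction (x, nt), for internal and last exons, with 95% Wilson intervals. In internal exons the share falls from 81.3% at 1 to 25 nt to 44.3% between 100 and 150 nt, and it is 38.3% beyond 1000 nt.

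The motif differed in its last base. T, which is U in RNA, closed the 5-mer in 53.7% (53.2% to 54.2%) of cerebrum-only sites, 63.1% (62.6% to 63.5%) of common sites and 51.5% (50.4% to 52.6%) of cerebellum-only sites, against 29.0% of uncalled DRACH adenosines. C closed it in 15.3% (14.9% to 15.6%), 10.9% (10.6% to 11.2%), 17.1% (16.2% to 17.9%) and 30.7%. On the 19 autosomes the share closing in T ranged from 50.6% to 56.9% among cerebrum-only sites and from 60.7% to 65.6% among common sites, so the ranges did not overlap. The difference was present in coding sequence (47.8% against 57.7%), 3′ UTRs (56.9% against 66.6%) and introns (56.9% against 70.8%). It was also present within genes, where the share closing in T was lower among cerebrum-only sites in 1033 and higher in 441 of 1520 genes.

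Ordered by the cerebrum-only share of cerebrum-only plus common sites, the 18 DRACH 5-mers ran from GAACT at 43.8% (42.8% to 44.8%) to TAACC at 89.1% (83.8% to 92.9%). The most frequent, GGACT, made up 12.5% of cerebrum-only and 14.0% of common sites, a share of 46.7% (45.8% to 47.7%). The next highest shares were 76.2% for AAACC, 75.8% for TAACA and 69.0% for TGACC. These were also the 5-mers seldom listed at all: in both libraries together, TAACC was listed at 0.834 and AAACC at 1.80 of 100 adenosines, compared with 29.5 for GGACT and 25.96 for GAACT. The share of GGACT did not differ from the 46.7% of TGACT beyond their intervals, and AGACT at 44.5% lay next to GAACT with overlapping intervals. G before the methylated A was equally frequent, 64.1% (63.6% to 64.5%) among cerebrum-only and 64.5% (64.0% to 65.0%) among common sites, and lower among cerebellum-only sites, 56.7% (55.6% to 57.8%).

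**Figure D5:**
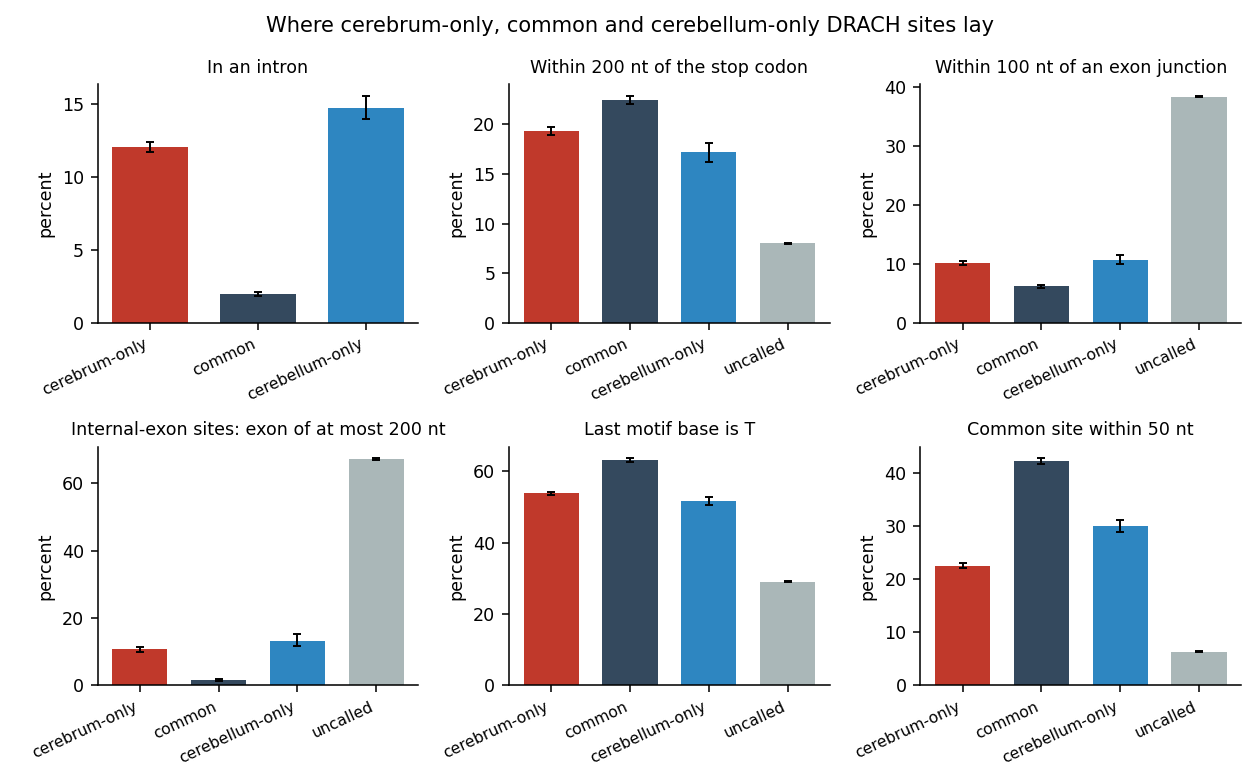
Percentage of cerebrum-only, common and cerebellum-only DRACH sites, and of uncalled DRACH adenosines where shown, with each of 6 features (y, percent; bars start at 0; error bars are 95% Wilson intervals). In the panels on introns, stop codon, junctions, short exons and last motif base, cerebrum-only and cerebellum-only sites lie closer to each other than to common sites, as for introns at 12.1%, 14.7% and 2.01%.

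Finally, the neighbourhood of the sites was considered. A common DRACH site lay within 50 nt of 19.7% (19.3% to 20.1%) of cerebrum-only sites, and of 22.5% (22.1% to 22.99%) of those on coding isoforms. For uncalled DRACH adenosines on the same isoforms the value was 6.33% (6.26% to 6.39%), for cerebellum-only sites 29.9% (28.8% to 31.1%), and another common site lay within 50 nt of 42.2% (41.7% to 42.7%) of common sites. The median distance to the nearest common site was 214.5 nt for cerebrum-only and 71 nt for common sites. Any cerebellum site, DRACH or not, lay within 50 nt of 28.1% (27.6% to 28.6%) of the cerebrum-only sites on coding isoforms, so most had no listed cerebellum site that close. Intronic cerebrum-only sites were the most isolated, with a common DRACH site within 50 nt of 2.43% (2.02% to 2.92%).

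In the genes with 20 or more common sites, a subset chosen after the data were seen, cerebrum-only and common sites still differed in the same directions. There 19.1% and 2.32% were intronic, 48.1% and 58.7% of 5-mers closed in T, 9.68% and 11.6% lay within 200 nt of the stop codon, and 7.88% and 4.49% lay within 100 nt of a junction.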

How the data were processed

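The authors mapped the reads of each GLORI library to mm10 and to a copy of mm10 with PWK bases, used GLORI-tools to call sites, and retained from the union of both runs those above a minimum methylation rate and read count. For its high-confidence sites the study also required overlap with m6A-seq peaks of the same tissue, a step not applied here. The deposited lists give chromosome, position and strand of each site and no other measurement, and the build is mm10 per the labels. The cerebrum list has a file name that also carries an abbreviation for the cerebellum, and its tissue was taken from the sample record.

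Positions were looked up in GRCm38, the assembly of mm10, and in GENCODE M21, which is not the release the study's methods name. A site on coding exons was assigned to the longest isoform covering it with a complete coding sequence. Uncalled DRACH adenosines are those of 1 isoform per gene at which neither library listed a site. Sites in overlapping genes count for each gene. The members and gene lists were chosen with earlier results of these data known. Genes were named as the 10 with most cerebrum-only sites, the 8 largest and 8 smallest shares among genes with at least 20 DRACH sites, and listed genes with most or no such sites. Further genes of the lists were named after their values were seen, and some genes that these rules pick are not reported here. The steps were tested on simulated transcripts. Python 3.11.15, numpy 2.4.6, pandas 2.3.3 and matplotlib 3.10.9 were used.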

Additional observations from a re-analysis of the deposited data

How the results depend on the processing

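With 1 library per tissue, precision is limited by the unknown depth, and no result has a replicate check. No paired analysis was possible because each tissue has 1 library. Cerebrum-only and common sites kept the order of their shares in 3′ UTRs, near the stop codon, near junctions and closing in T under every matching, gene and repeat alternative. So did the intronic share, except where exonic sites alone were kept, which sets it to 0. Requiring at least 3 common sites gave 52.4% closing in T, 51.6% in 3′ UTRs, 13.6% in introns, 16.9% near the stop codon, 9.61% near junctions, 22.3% with a common site within 50 nt and 1376 genes with more cerebrum-only than common sites. Requiring 20, chosen after seeing the data, gave 48.1%, 35.8%, 19.1%, 9.68%, 7.88%, 27.1%, 67 genes and 6308 sites in all. Without masked repeats 3′ UTRs held 52.1% and introns 11.1%. Exonic sites alone gave 52.98% closing in T and 22.6% near a common site. A window of 400 nt around the stop codon held 32.1%. Junction limits of 50 and 200 nt gave 4.50% and 21.3%. A common site lay within 20 nt of 7.65% and within 100 nt of 33.9%, and any cerebellum site lay within 50 nt of 24.8%. Among genes with at least 10 DRACH sites in all, 1415 had more cerebrum-only than common sites. The remaining alternatives left each share inside its interval, and each count of sites within 1.5 times.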
